A study of Mus musculus with 33 samples.

Results

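The genes that encode the subunits of the ionotropic and metabotropic receptors for GABA and glutamate were described in the hypothalamus of female mice before and after ovariectomy (OVX), the surgical removal of both ovaries. Members were taken by gene symbol (Gabra, Gabrb, Gabrg, Gabrr, Gria, Grik, Grin and Grm with a number, *Gabrd*, *Gabre*, *Gabrq*, *Gabbr1* and *Gabbr2*), which gave 44 of the 41565 named genes in the table. They fell into 18 GABA-A, 2 GABA-B, 4 AMPA, 5 kainate, 7 NMDA and 8 metabotropic glutamate receptor genes. The question was whether these genes differed between intact mice and mice at 2 times after OVX, and how the receptor classes and their members varied between libraries.

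Bulk RNA-seq had been made of the posterior hypothalamus (PH), which holds metabolic and reproductive centers, and of the preoptic area (POA), which holds neurons that regulate temperature. All mice were WT C57BL/6 females without a transgene. The PH groups were 4 intact libraries, 6 libraries 14 days after OVX and 6 libraries 4 months after OVX, and the POA groups were 5, 6 and 6 libraries in that order. The intact group, which the sample titles call sham, was collected in diestrus before any OVX, and the other mice had been operated on as adults. Time since OVX therefore cannot be told apart from age, and no sham surgery of matched age stands beside the 4-month group. Each group held libraries of 2 sequencing batches, named so by the labels. The labels of 1 POA library 14 days after OVX give its condition only as 14. The labels do not state that libraries of a group came from separate mice, so P values measure the spread between these libraries.

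GABA-A receptors are pentameric chloride channels, usually built of alpha and beta subunits with a gamma or delta subunit, and GABA-B receptors are G protein-coupled heterodimers of GABBR1 and GABBR2. AMPA and kainate receptors carry fast excitatory currents, NMDA receptors add calcium entry that depends on depolarization, and the metabotropic glutamate receptors signal through G proteins. In the hypothalamus the GABA-A and ionotropic glutamate receptors carry most of the fast input to the neurons that control gonadotropin release, body temperature and feeding.

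The deposited values are normalized expression signal on a linear scale, and their sums are not sequencing depth, which is unknown. Genes that were not detectably expressed sat at a floor of 22.1. An adjustment across libraries that differs between the regions is visible at this floor, so levels were not compared between the PH and the POA. The PH library 14 days after OVX replicate 5 had the highest sum of all 33 libraries, and the POA library 14 days after OVX replicate 6 had the lowest. All 12 neuronal, all 12 astrocyte and all 10 oligodendrocyte marker genes were above 2 times the floor in every library. All 10 genes of the thalamus list were as well, with a summed signal of 66706 to 84289 in intact PH libraries. Of the 10 genes of the arcuate and mammillary list, 8 were above 2 times the floor in every PH library and 7 in every POA library.

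Among the 44 members, 41 reached 2 times the floor (44.1) in enough libraries to be tested, namely 4 PH or 5 POA libraries. The other 3, *Gabra6*, the alpha subunit of cerebellar granule cells, *Gabrr3*, a rho subunit known from the retina, and *Grm6*, the receptor of retinal ON bipolar cells, had PH means of 26.6, 31.1 and 30.7 and POA means of 27.9, 28.6 and 28.5. *Gabrr1* reached 2 times the floor in 8 of 16 PH and 5 of 17 POA libraries and *Grin3b* in 11 and 11, and every other tested member did so in all 33. Levels of different genes were compared as signal per kb of mean protein-coding transcript length (GENCODE M39), as levels or as shares within a class, with the SD over 16 PH or 17 POA libraries.

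**Figure D1:**
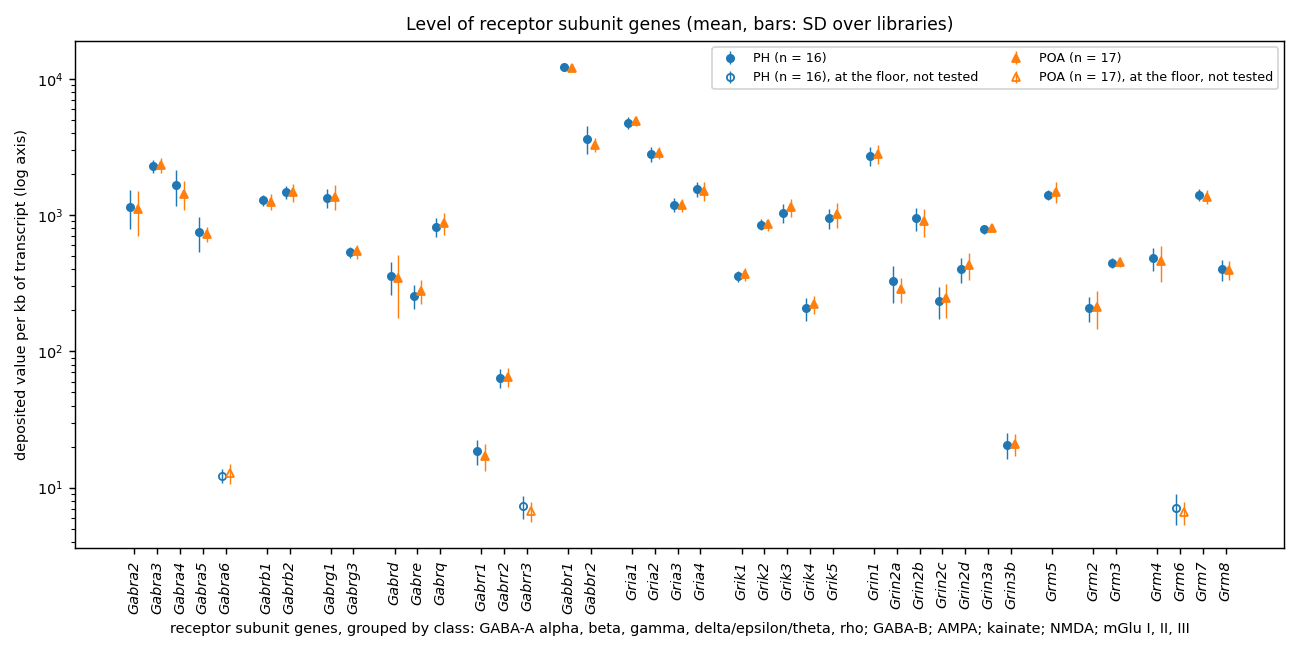
Level of 40 members as deposited signal per kb of transcript on a log axis, with circles for the mean of 16 PH libraries, triangles for the mean of 17 POA libraries and bars for the SD. Open symbols mark the 3 members at the floor. *Gabbr1* is the highest member in both regions, at 12214 and 12118 per kb, and the rho subunits and *Grin3b* are the lowest of those tested.

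Among the GABA-A alpha subunits, which set the benzodiazepine pharmacology of the channel, *Gabra3* lay at 2291 ± 259 per kb (PH) and 2337 ± 308 (POA), and *Gabra4*, a partner of the delta subunit outside synapses, at 1649.9 ± 477 and 1435 ± 337. *Gabra2* lay at 1155 ± 366 and 1099.8 ± 402, and *Gabra5* at 749 ± 217 and 727 ± 91. In the POA the levels of *Gabra4* and *Gabra2* differed by less than the larger of their SDs. Of the beta subunits, which carry the GABA site together with alpha, *Gabrb2* lay at 1473 ± 168 per kb (PH) and 1468 ± 227 (POA), and *Gabrb1* at 1284 ± 119 and 1257 ± 168. Per kb of the longest coding length both orders turned, with PH levels of 5073 for *Gabra2* against 3671 for *Gabra4*, and 10036 for *Gabrb1* against 6378 for *Gabrb2*. Of the gamma subunits, which take part in synaptic clustering, *Gabrg1* lay at 1334 ± 215 per kb (PH) and 1367 ± 283 (POA), above *Gabrg3* at 535 ± 51 and 541 ± 62. The epsilon and theta subunits, which are concentrated in the hypothalamus and brainstem, were present, with *Gabrq* at 819 ± 134 per kb (PH) and 874 ± 154 (POA), and *Gabre* at 254 ± 51 and 278 ± 57. The rho subunits *Gabrr2* and *Gabrr1* lay at 64.2 and 18.5 per kb in the PH. *Gabbr1*, the GABA-binding subunit of the GABA-B receptor, held 77.2% ± 3.8 (PH) and 78.7% ± 2.0 (POA) against its partner *Gabbr2*.

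Of the AMPA receptor genes, *Gria1* held 46.1% ± 2.8 (PH) and 46.9% ± 2.3 (POA) and *Gria2*, whose edited subunit blocks calcium entry, 27.2% ± 1.8 (PH) and 27.3% ± 0.89 (POA). *Gria4* held 15.1% ± 2.3 in the PH and *Gria3* 11.6% ± 1.4. Of the kainate receptor genes, *Grik3* and *Grik5*, a high-affinity subunit that forms channels only with others, held PH shares of 30.4% ± 2.7 and 27.8% ± 2.5 and POA shares of 31.7% ± 2.6 and 27.9% ± 4.7, and were not separated by their SDs. With the canonical transcript length the order turned, to 38.8% for *Grik5* and 19.8% for *Grik3* in the PH. *Grik4*, the other high-affinity subunit, was the lowest with 6.07% ± 0.84 (PH) and 6.12% ± 0.61 (POA). *Grin1*, the obligatory NMDA subunit, lay at 2724 ± 449 per kb in the PH. Among the GluN2 subunits, which set the kinetics of the channel, *Grin2b* held 49.6% ± 3.2 (PH) and 48.1% ± 8.4 (POA), *Grin2d* 21.1% ± 3.8 (PH) and 23.4% ± 7.0 (POA), *Grin2a* 17% ± 3.5 (PH) and 15.3% ± 2.3 (POA) and *Grin2c* 12.3% ± 2.5 (PH) and 13.2% ± 3.6 (POA). The order of *Grin2d* and *Grin2a* turned with the longest coding length, to 19.2% for *Grin2a* and 10.5% for *Grin2d* in the PH. Of the metabotropic genes, *Grm5*, a group I receptor coupled to calcium release, held 26% ± 2.1 (PH) and 27.6% ± 4.3 (POA) and the presynaptic group III receptor *Grm7* 26.1% ± 1.8 (PH) and 25.4% ± 2.4 (POA). *Grm7* depends on the length, at 13.4% in the PH with the longest coding length, where *Grm5* held 34.1%. *Grm2*, a group II autoreceptor, held 3.80% ± 0.62 (PH) and 3.98% ± 1.3 (POA).

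No member passed the test in any comparison (limma on log2 values with the surrogate variable SV1, called at an adjusted P under 0.05 over all genes tested). In the PH, 0 of 41 members were called 14 days after OVX, where 0% of 21998 genes were called, 0 of 41 at 4 months, where 0.0318% were, and 0 of 41 between the OVX times, where 0.00909% were. In the POA, the members called were 0 of 41 at 14 days, 0 of 41 at 4 months and 0 of 41 between the OVX times, against 0.00468%, 0.0936% and 0.0281% of 21366 genes. The 95% intervals show how large a difference these libraries could have missed. In the PH, 37 of 41 intervals at 14 days and 35 of 41 at 4 months lay inside 1.5-fold either way, as did 82.7% and 81.8% of all genes. In the POA the counts were 38 and 37 of 41, with 90.1% and 89.4% of all genes. Intervals that reached outside 1.5-fold included those of *Gabra2*, from -0.33 to 1.16 on the log2 scale in the PH at 14 days, and *Gabrd*, from -0.37 to 1.26 in the POA at 4 months.

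**Figure D2:**
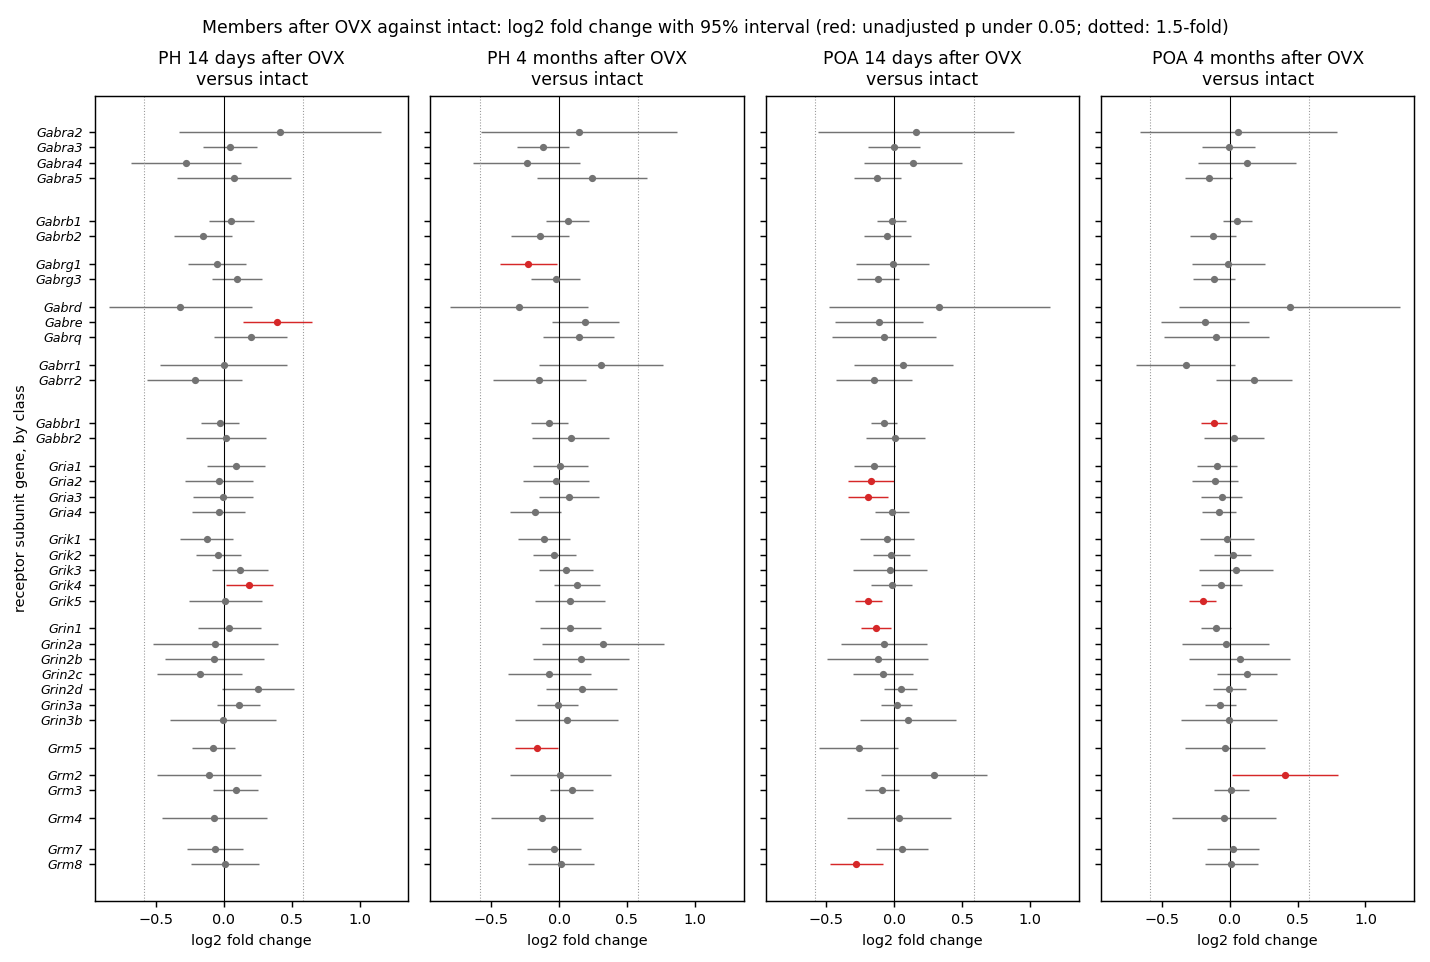
Log2 fold change of 37 tested members against intact (x axis) with 95% intervals, in 4 panels by region and time after OVX, with genes in class order on the y axis. Red marks an unadjusted P under 0.05, which 2, 2, 5 and 3 of these members had from left to right, and dotted lines mark 1.5-fold. Most intervals cross 0 and stay between the dotted lines.

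In the PH 14 days after OVX, 2 members had a higher value at an unadjusted P under 0.05, against 1.57% of all genes, and 0 had a lower one, against 1.47%. They were *Gabre*, the epsilon subunit, and *Grik4*. *Gabre* (chrX:71299605-71318409, minus strand, GRCm39) was 822, 842, 1106 and 1037 in the 4 intact libraries and ranged from 801 to 1467 with a median of 1166 in the 6 libraries at 14 days, of which 4 were above all intact libraries and 1 was below them. It had a log2 fold change of 0.39 ± 0.12 (SE; 95% interval 0.14 to 0.65; unadjusted P = 0.0043; adjusted P = 1.00) with SV1. The mean differences without a covariate were 0.27 over all libraries, 0.59 in batch 1 and -0.058 in batch 2. The sign in batch 2 rested on replicate 5 at 14 days, without which the batch 2 difference was 0.12. *Grik4* was 940.4, 1069, 1255 and 1301 in intact libraries and ranged from 702 to 1420.1 with a median of 1238 at 14 days, with the lowest value in replicate 5. The groups overlapped, and limma with SV1 gave a log2 fold change of 0.19 ± 0.082 (SE; 95% interval 0.017 to 0.36; unadjusted P = 0.0327; adjusted P = 1.00). Without a covariate the mean difference was 0.015 over all libraries, 0.26 in batch 1 and -0.23 in batch 2, the latter 0.094 without replicate 5. SV1 in the PH was 0.79 in replicate 5 at 14 days and -0.31 to 0.19 in the other libraries. The fitted values with SV1 at 14 days are thus not plain differences of the 6 libraries from intact. With the means of the thalamus and cortex lists in place of SV1, the log2 fold change of *Grik4* was 0.0035 (unadjusted P = 0.981). This setting also leaves out SV1, and the part of the lists was not tested. In bulk tissue, fewer cells of a type and less RNA per cell cannot be told apart.

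In the PH 4 months after OVX, 2 members had a lower value at an unadjusted P under 0.05, against 3.12% of all genes, and 0 a higher one, against 2.95%. *Gabrg1*, a gamma subunit of glia and of some hypothalamic neurons, was 7563, 5757, 5279.9 and 5746 in intact libraries and ranged from 3969 to 6004 with a median of 5317 at 4 months, where 3 of 6 libraries were below every intact one. It had a log2 fold change of -0.23 ± 0.10 (SE; 95% interval -0.44 to -0.018; unadjusted P = 0.0345; adjusted P = 0.787), with mean differences of -0.26 in batch 1 and -0.25 in batch 2. *Grm5* was 10036, 9924, 9953 and 10657 in intact libraries and ranged from 8271 to 10466 with a median of 8713 at 4 months. Of these 6 libraries, 4 lay below the intact range, and the log2 fold change of -0.16 ± 0.075 (SE; 95% interval -0.32 to -0.0081; unadjusted P = 0.0403; adjusted P = 0.795) had the same sign in both batches (-0.15 in batch 1 and -0.17 in batch 2). In this comparison, 8 of 12 microglia markers and 5 of 10 endothelial markers were higher at an unadjusted P under 0.05, and 3 of 10 oligodendrocyte markers and 2 of 12 neuronal markers were lower. The microglia list summed to 15473 to 16652 in intact libraries and 16951 to 20991 at 4 months, the endothelial list to 10316 to 11243 and 12007 to 16395, the oligodendrocyte list to 299932 to 327824 and 261569 to 372408, and the neuronal list to 354918 to 381826 and 333886 to 383782. Their part in the values of *Gabrg1* and *Grm5* was not tested.

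When the OVX groups of the PH were compared with each other, 0 members had a higher and 0 a lower value at an unadjusted P under 0.05, against 2.07% and 2.02% of all genes. The smallest P values were those of *Gabra3* and *Grin2a*. *Gabra3* was 8954, 8980.4, 8303 and 8031 in intact libraries, ranged from 7707 to 10374 with a median of 8919 at 14 days and from 6606 to 9283 with a median of 7981 at 4 months, with a log2 fold change of -0.17 ± 0.087 (SE; 95% interval -0.35 to 0.015; unadjusted P = 0.0702; adjusted P = 1.00). *Grin2a*, the subunit of fast mature NMDA receptors, was 3247, 3108, 3590.3 and 3065 in intact libraries and ranged from 2658 to 5116 with a median of 3265 at 14 days and from 2658 to 6061 with a median of 3961 at 4 months. Its 4 highest PH libraries were replicate 5 at 14 days and replicates 1, 3 and 4 at 4 months, and it had a log2 fold change of 0.39 ± 0.20 (SE; 95% interval -0.042 to 0.81; unadjusted P = 0.0737; adjusted P = 1.00) with mean differences of 0.39 in batch 1 and 0.084 in batch 2.

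In the POA 14 days after OVX, 6 of 41 members had a lower value at an unadjusted P under 0.05, against 3.3% of all genes, and 0 a higher one, against 2.84%. They included 5 genes of glutamate receptors, *Grik5*, *Grm8*, *Gria3*, *Grin1* and *Gria2*. The 41 tested members held 16 GABA-A, 2 GABA-B, 4 AMPA, 5 kainate, 7 NMDA and 7 metabotropic glutamate receptor genes. *Grik5* (chr7:24709269-24772708, minus strand, GRCm39) had the smallest P of the 41 members here and at 4 months. In batch 1 it was 4311 and 4260.3 in intact libraries and 3551, 3574 and 3507 at 14 days, and in batch 2 it was 5981, 5825 and 5884 in intact libraries and 5072, 5071 and 5326 at 14 days. All 6 libraries at 14 days were thus below every intact library of their batch, although the batches differed more than the groups. It had a log2 fold change of -0.19 ± 0.047 (SE; 95% interval -0.29 to -0.094; unadjusted P = 0.000581; adjusted P = 0.567), and the mean differences were -0.27 in batch 1 and -0.19 in batch 2. With batch in place of SV1 the log2 fold change was -0.23 (adjusted P = 0.541), and with neither it was -0.28 (unadjusted P = 0.104).

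The promoter of *Grik5* is shown because this gene came closest to a call. The 250 bases before its RefSeq start site lie at chr7:25072370-25072619 (GRCm38.p6, minus strand, 5′ to 3′). Capitals mark the GC box GGGCGG, which was searched on both strands.
Grik5: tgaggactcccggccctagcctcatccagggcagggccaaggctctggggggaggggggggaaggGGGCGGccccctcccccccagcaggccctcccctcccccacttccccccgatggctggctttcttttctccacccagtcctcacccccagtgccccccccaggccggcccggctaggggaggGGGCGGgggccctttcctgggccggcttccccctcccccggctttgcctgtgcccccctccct
This window has a GC content of 75.2% and holds 2 GC boxes. A GC box was present in 19 of 38 promoter windows of the 31 members that RefSeq matched, and in 35.7% of all 32851 windows (250 bases before to 50 after the start). The full estrogen response element GGTCANNNTGACC was present in 0 of these 38 windows and in 0.070% of all windows, which says only that these letters are not in them.

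*Gria3*, an AMPA receptor subunit, was 6215, 6061, 5617, 5374 and 5243 in intact POA libraries and ranged from 3812 to 6336 with a median of 5423 at 14 days. At 14 days 3 of 6 libraries were below and 1 above the intact range, with a log2 fold change of -0.19 ± 0.072 (SE; 95% interval -0.34 to -0.043; unadjusted P = 0.0142; adjusted P = 0.799) and mean differences of -0.10 in batch 1 and -0.24 in batch 2. The log2 fold changes were -0.28 ± 0.094 (SE, unadjusted P = 0.00754) for *Grm8*, a presynaptic group III receptor, -0.14 ± 0.052 (SE, unadjusted P = 0.0167) for *Grin1* and -0.17 ± 0.082 (SE, unadjusted P = 0.0497) for *Gria2*. The lowest libraries of *Grm8*, *Gria2* and *Gria3* were all replicate 6 of this group. Without replicate 6, the log2 fold changes were -0.21 for *Grm8*, -0.12 for *Gria3*, -0.068 for *Gria2* and -0.18 for *Grik5*. With the means of the thalamus and cortex lists in place of SV1 they were -0.17 for *Grm8*, -0.073 for *Gria3* and -0.0061 for *Gria2*. The unadjusted P values were 0.334, 0.597 and 0.96, and *Grik5* stood at -0.24 (unadjusted P = 0.287). That setting holds no term for batch, whereas SV1 in the POA was 0.19 to 0.35 in batch 1 and -0.32 to -0.12 in batch 2. The lists and the missing batch term cannot be told apart in it. The 12 neuronal markers summed to 349916 to 378486 in intact libraries and 296177 to 406076 at 14 days, and the 8 pituitary markers, 2 of them above 2 times the floor in every POA library, to 407 to 2154 and 509.9 to 10826. Their part in these values was not tested.

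In the POA 4 months after OVX, 3 members had a lower value at an unadjusted P under 0.05, against 4.4% of all genes, and 1 a higher one, against 4.1%. *Grik5* was 3113, 3559.9 and 3691 in batch 1 and 4947, 5675 and 4917 in batch 2, again below every intact library of the same batch. It had a log2 fold change of -0.20 ± 0.047 (SE; 95% interval -0.30 to -0.10; unadjusted P = 0.000423; adjusted P = 0.153). Under the other settings tried, its adjusted P ran from 0.0598 to 1.00. *Grik5* was the only one of 41 members for which all 12 POA libraries after OVX lay below the intact libraries of their batch, which 0.215% of all genes did, and 0 lay above, against 0.154%. In the PH, 0 members lay below and 0 above, against 0.0727% and 0.145% of all genes. Both POA comparisons share the intact libraries. *Gabbr1* was 45964, 47598, 47776, 48566 and 45679 in intact libraries and ranged from 39609.9 to 50082 with a median of 42459 at 4 months. Of these 6 libraries, 5 were below every intact library and replicate 5 was above, with a log2 fold change of -0.11 ± 0.046 (SE; 95% interval -0.21 to -0.019; unadjusted P = 0.0211; adjusted P = 0.487). *Grm2* had a log2 fold change of 0.41 ± 0.18 (SE, unadjusted P = 0.042). With the means of the thalamus and cortex lists in place of SV1 it was 0.019, and that of *Grik5* was -0.23. This setting holds no term for batch. Over the alternatives tried, the unadjusted P of *Grik5* by limma ran from 7.8e-05 to 0.252. Of the 12 microglia markers, 9 were higher here at an unadjusted P under 0.05, and the list summed to 16077 to 17384 in intact and 17068 to 20806 in 4-month libraries. Its part was not tested.

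**Figure D3:**
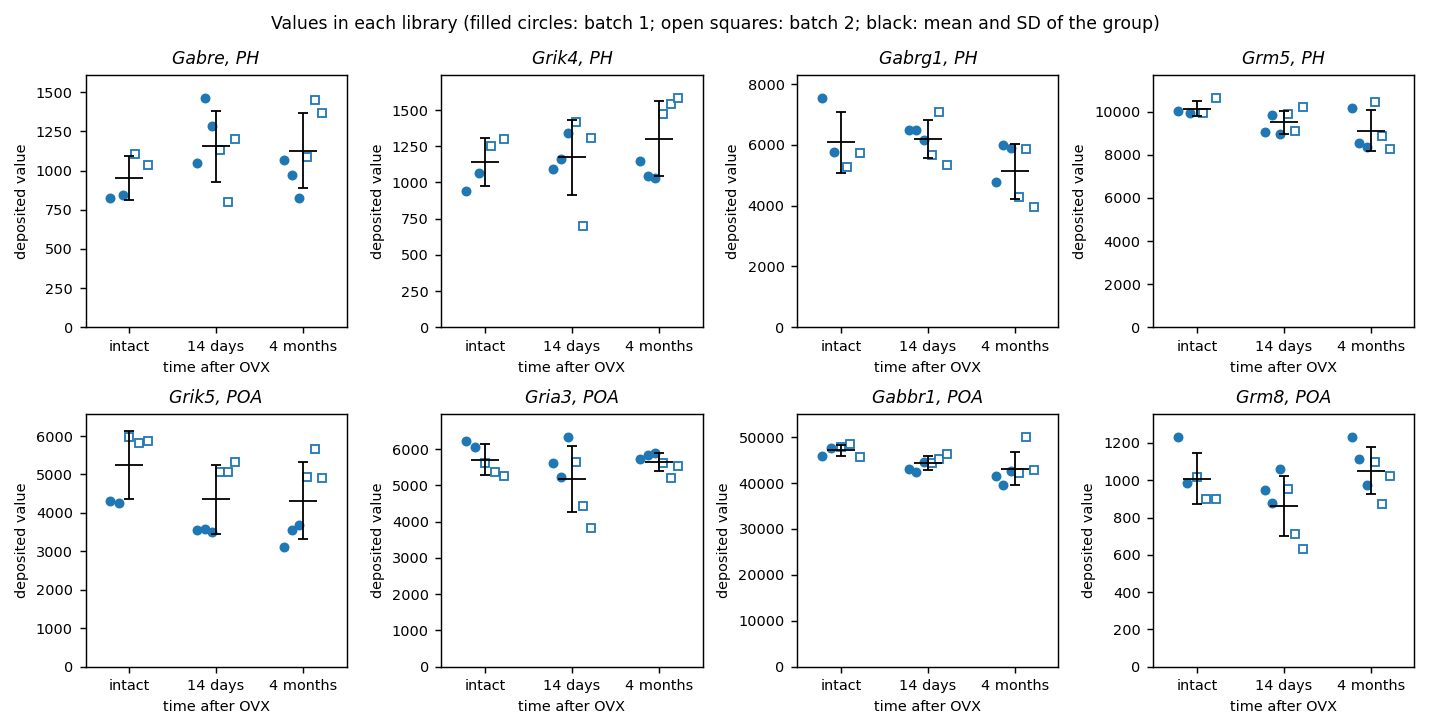
Deposited value (y axis, from 0) in each library (4 members of the PH above, 4 of the POA below) of the intact, 14-day and 4-month groups, with filled circles for batch 1, open squares for batch 2 and black bars for mean and SD. In the *Grik5* panel the batches form separate bands, and within each band all libraries after OVX lie below the intact ones, whereas the groups overlap in the other panels.

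When the OVX groups of the POA were compared with each other, 3 members had a higher and 1 a lower value at an unadjusted P under 0.05, against 2.47% and 2.64% of all genes. *Grm8* was 1233, 984, 1019, 900.0 and 899 in intact libraries, ranged from 633 to 1060.2 with a median of 912 at 14 days and from 872 to 1229.9 with a median of 1062 at 4 months, so the 4-month libraries overlapped the intact range. Its log2 fold change of 0.29 ± 0.089 (SE; 95% interval 0.11 to 0.48; unadjusted P = 0.00376; adjusted P = 0.735) had the same sign in both batches (0.20 in batch 1 and 0.40 in batch 2). *Gabrr2*, a rho subunit near the floor, was 92.9, 70.4, 84.1, 87.7 and 90.4 in intact libraries and ranged from 58.0 to 94.7 with a median of 75.8 at 14 days and from 79.5 to 117 with a median of 97.3 at 4 months, with a log2 fold change of 0.33 ± 0.13 (SE; 95% interval 0.061 to 0.59; unadjusted P = 0.0186; adjusted P = 0.915). The log2 fold changes were -0.39 ± 0.17 (SE, unadjusted P = 0.0285) for *Gabrr1*, whose values lie around 2 times the floor, and 0.21 ± 0.10 (SE, unadjusted P = 0.0485) for *Grin2c*. With 1 library left out the value of *Grin2c* ran from 0.14 (14-day replicate 5) to 0.32 (14-day replicate 6). Fold changes of *Gabrr1* and *Gabrr2* may be compressed by the floor, which was not tested.

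An interaction term over all 33 libraries and 22141 genes asked whether the OVX differences were unequal in the PH and POA. At 14 days 0 of 41 members were called, against 0.00452% of genes, and at 4 months 0 of 41, against 0.00903%. At 14 days 1 member was lower in the POA relative to the PH at an unadjusted P under 0.05 (background 1.33%) and 0 were higher (1.67%), and at 4 months 2 were lower (1.92%) and 0 higher (2.16%). The differences of log2 fold change, POA minus PH, were -0.51 ± 0.20 (SE, unadjusted P = 0.018) for *Gabre* at 14 days, and -0.63 ± 0.28 (SE, unadjusted P = 0.0339) for *Gabrr1* and -0.28 ± 0.13 (SE, unadjusted P = 0.0428) for *Grik5* at 4 months. In the PH, *Grik5* was 3871, 3692, 4894 and 4552 in intact libraries and had log2 fold changes of 0.012 ± 0.13 (SE, unadjusted P = 0.924) and 0.080 ± 0.12 (SE, unadjusted P = 0.526) at the earlier and the later time.

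Against intact, the median log2 fold changes of all genes tested lay between -0.011 and -0.0018. By receptor class, with GABA-A and metabotropic genes each pooled, the median log2 fold changes ran from -0.16 to 0.082 over both times and regions. At 14 days and then at 4 months they were 0.011 and -0.027 (PH) and -0.051 and -0.073 (POA) for the 16 tested GABA-A members, 0.012 and 0.051 (PH) and -0.035 and -0.021 (POA) for the 5 kainate members and -0.068 and -0.036 (PH) and 0.0052 and 0.013 (POA) for the 7 tested metabotropic members. For the 4 AMPA genes they were -0.021 and -0.0062 (PH) and -0.16 and -0.085 (POA). In the POA the 14-day median of the AMPA genes was -0.075 without replicate 6 of that group and -0.040 with the means of the thalamus and cortex lists in place of SV1, which turned the sign of the 4-month median, to 0.032. The POA median of the kainate genes at 14 days also changed sign, to 0.024 and 0.026 in these settings. The setting with the list means leaves out SV1 and holds no term for batch. For the 7 NMDA genes the medians were -0.0085 and 0.082 (PH) and -0.076 and -0.0041 (POA), and for *Gabbr1* and *Gabbr2* together -0.0058 and 0.0066 (PH) and -0.033 and -0.040 (POA). Within the pooled GABA-A and metabotropic genes, the medians of the smaller classes ran from -0.13 to 0.21. The lowest was that of the 2 group I metabotropic genes in the POA at 14 days. The highest were 0.20 for the 3 delta, epsilon and theta genes (PH, 14 days) and 0.21 for the 2 group II genes (POA, 4 months). Over all 41 members, 29 lay below 0 in the POA at 14 days and 26 at 4 months, and 23 and 20 in the PH. The medians of the members, in this order, were -0.052, -0.030, -0.0085 and 0.0092. Those of all genes tested were -0.0059, -0.011, -0.0018 and -0.0093. The share of all genes below 0 is not given here, so the counts of members have no background to be read against. The POA values share the intact libraries, and no test over the class was made.

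Genes that act around these receptors gave 0 calls in each of the 6 comparisons within a region. Of 34 scaffold and auxiliary genes of glutamate receptors, 5 had a lower value at an unadjusted P under 0.05 in the POA at 14 days and 6 at 4 months, and 0 a higher one at either time, where 3.3% and 4.4% of all genes were lower. They included *Nptx1*, which clusters AMPA receptors from the presynaptic side, at -0.25 ± 0.063 (SE, unadjusted P = 0.0007, adjusted P = 0.591) and -0.25 ± 0.063 (SE, unadjusted P = 0.000732, adjusted P = 0.2), and *Dlg4*, the postsynaptic scaffold PSD-95, at -0.16 ± 0.044 (SE, unadjusted P = 0.00182, adjusted P = 0.683) and -0.17 ± 0.045 (SE, unadjusted P = 0.00103, adjusted P = 0.208). In the PH 0 of the 34 genes reached this P in either direction at 14 days or at 4 months. Of 13 scaffold and auxiliary genes of GABA receptors, 3 were lower at this P in the POA at 14 days (*Gphn* and *Kctd12* among them) and 2 at 4 months (*Clptm1* and *Nlgn2*), while 2 were higher in the PH at 4 months, where 2.95% of all genes were, *Shisa7* and *Plcl1*, which takes part in GABA-A receptor trafficking, at 0.23 ± 0.086 (SE, unadjusted P = 0.0147, adjusted P = 0.68). Of 11 genes of glutamate synthesis and transport, 2 were lower in the POA at each time, *Glul* and *Slc1a1* at 14 days and *Glud1* and *Slc17a8* at 4 months. Between the OVX times in the POA *Glul*, the glutamine synthetase of astrocytes, stood at 0.21 ± 0.056 (SE, unadjusted P = 0.00104, adjusted P = 0.592) and *Slc17a8*, the vesicular glutamate transporter VGLUT3, at -0.32 ± 0.13 (SE, unadjusted P = 0.0197, adjusted P = 0.919). None of the 10 genes of GABA synthesis, transport and the chloride gradient had an unadjusted P under 0.05 in any of the 6 comparisons.

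The spread between libraries of a group exceeded the fitted differences from intact in *Gabra2* and *Gabrd*, but this was not particular to them. *Grik5* in the POA had a within-group SD of 0.30, which includes the difference between batches, beside fitted differences of -0.19 and -0.20. *Grik4* in the PH had an SD of 0.31 beside 0.19 at 14 days. The within-group SD on the log2 scale had a median of 0.24 over 41 members in the PH and 0.24 in the POA, beside 0.26 and 0.22 over all genes. It was smallest in *Gabbr1*, at 0.080 and 0.077. It was largest in the PH in *Gabra2* (0.53), *Gabra4* (0.42), *Gabrd* (0.40), *Grin2a* (0.40) and *Gabra5* (0.39), and in the POA in *Gabrd* (0.63), *Gabra2* (0.57) and *Grm2* (0.45).

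*Gabra2* (chr5:71114573-71253662, minus strand, GRCm39), an alpha subunit of forebrain synapses, deviated alike in the PH and POA libraries that carry the same number within a group. Its values for replicates 1 to 6 at 4 months were 7803, 6609, 8751, 6565, 6557 and 2416 (PH) and 7653, 7363, 9879.9, 6014, 5538 and 2952 (POA). At 14 days they were 4225, 8501, 10778, 8896, 9633 and 6700.5 (PH) and 3612, 7336, 12191, 9268, 6179 and 4254 (POA). In intact libraries they were 4079.5, 6245, 6130.0 and 5920.4 in the PH, and 3611, 7305, 6341 and 5769 for the same numbers in the POA. In each of the 3 groups, the lowest and the highest of these libraries carried the same number in both regions. Over these 16 pairs, with the mean of each group and batch removed, Pearson r was 0.89 (exact permutation P = 0.00212) and Spearman rho 0.89 (exact permutation P = 0.00174). With only the group means removed, r was 0.90 (permutation P = 5e-05). It was 0.85 without the 2 farthest PH libraries, 0.97 in the 8 pairs of batch 1 and 0.83 in the 8 pairs of batch 2.

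The median r over the 41 members was 0.074, beside 0.032 over 21223 genes. Of all genes, 20 had an r at least as high as *Gabra2*, itself included. The relation was examined for all 41 members and *Gabra2* was chosen after its values were seen, so these P values are not adjusted for that choice. Its neighbors in the chromosome 5 cluster had r = 0.077 for *Gabrg1*, -0.034 for *Gabra4* and -0.24 for *Gabrb1*. The study collected both regions from its mice, but the sources used here do not state that a shared number marks 1 mouse. *Gabra2* had log2 fold changes of 0.42 ± 0.34 (SE, unadjusted P = 0.249) for the PH and 0.16 ± 0.34 (SE, unadjusted P = 0.641) for the POA at 14 days, and 0.15 ± 0.33 (SE, unadjusted P = 0.67) and 0.065 ± 0.34 (SE, unadjusted P = 0.85) at 4 months.

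**Figure D4:**
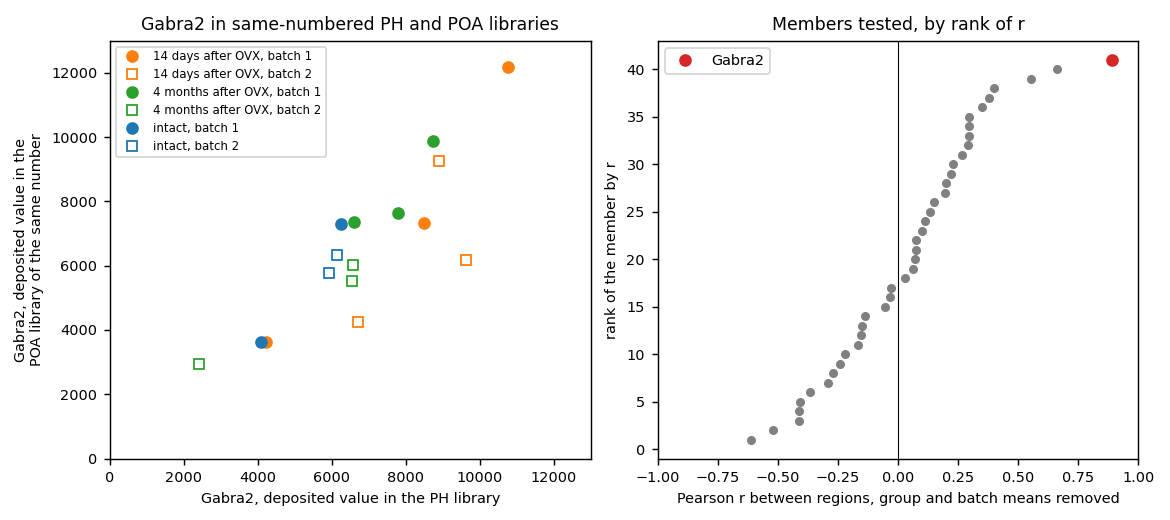
Left, *Gabra2* in the PH library (x axis) and in the POA library of the same group and number (y axis), as deposited values, for 16 pairs colored by group with filled circles for batch 1 and open squares for batch 2. Right, the Pearson r between the regions for each of the 41 members (x axis) by rank, with group and batch means removed and *Gabra2* in red. Libraries low in the PH are low in the POA and libraries high in the PH are high in the POA, and *Gabra2* has the highest r of the 41 members, 0.89.

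*Gabra4* followed the thalamus marker list across libraries in both regions. The log2 values of the 41 members were set against the mean log2 of each of 12 marker lists as deviations from the group mean, 984 relations in all, with r and rho by 100000 permutations within groups. A slope on the list mean was also fitted to all genes by limma with the groups, and its P was adjusted over all genes tested. For *Gabra4* and the thalamus list the 16 PH libraries gave Pearson r = 0.97 (permutation P = 5e-05) and Spearman rho = 0.95 (permutation P = 6e-05), with a slope of 0.96 ± 0.086 (SE, adjusted P = 2.5e-05) log2 units per log2 unit of the list. The 17 POA libraries gave Pearson r = 0.79 (permutation P = 0.00023) and Spearman rho = 0.85 (permutation P = 2e-05), with a slope of 0.70 ± 0.14 (SE, adjusted P = 0.0391). The PH r was 0.94 without the 2 libraries farthest from the median of the list, 0.95 within batch 1 and 0.97 within batch 2, and the POA r was 0.77 without the 2 libraries farthest from the median of the list, 0.82 within batch 1 and 0.88 within batch 2. Without the libraries that stand apart, PH replicate 5 and POA replicate 6 at 14 days, the adjusted P of the slopes were 2.2e-05 and 0.0111. *Gabra4* (chr5:71721738-71815722, minus strand, GRCm39) ranged from 3834 to 10545 at 4 months in the PH, its highest library being replicate 3, which also had the highest thalamus list.

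In the PH 4 of 41 members had a positive slope on the thalamus list at an adjusted P under 0.05, where 3.92% of all genes did, and 1 a negative one, where 3.75% did. The positive ones included *Gabra4* and *Gabbr2*, with a slope of 0.61 ± 0.12 (SE, adjusted P = 0.00877) for *Gabbr2*, and the negative one was *Grik3*, at -0.42 ± 0.12 (SE, adjusted P = 0.0378). Without PH replicate 5 at 14 days, 6 members were positive and 0 negative, where 3.26% and 3.24% of all genes were, and the adjusted P of *Grik3* was 0.0514. In the POA 1 member, *Gabra4*, had a positive slope at this adjusted P and 0 a negative one, where 0.206% and 0.0375% of all genes did. POA slopes were 0.32 ± 0.090 (SE, adjusted P = 0.119) for *Gabbr2* and -0.42 ± 0.10 (SE, adjusted P = 0.0823) for *Grik3*. Within batches 1 and 2 of the PH, r was 0.97 and 0.98 for *Gabbr2* and -0.50 and -0.82 for *Grik3*. The list held 10 genes, all above 2 times the floor in every library. It summed to 66706 to 84289 in intact, 53658 to 95794 in 14-day and 46405 to 117688 in 4-month PH libraries, and to 45291 to 86680.3, 54534 to 95512 and 60542 to 79824 in the POA. The ranges of the groups overlapped. The lists and the members were measured in the same libraries, and the part of the thalamus list in the members' group differences was not tested.

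**Figure D5:**
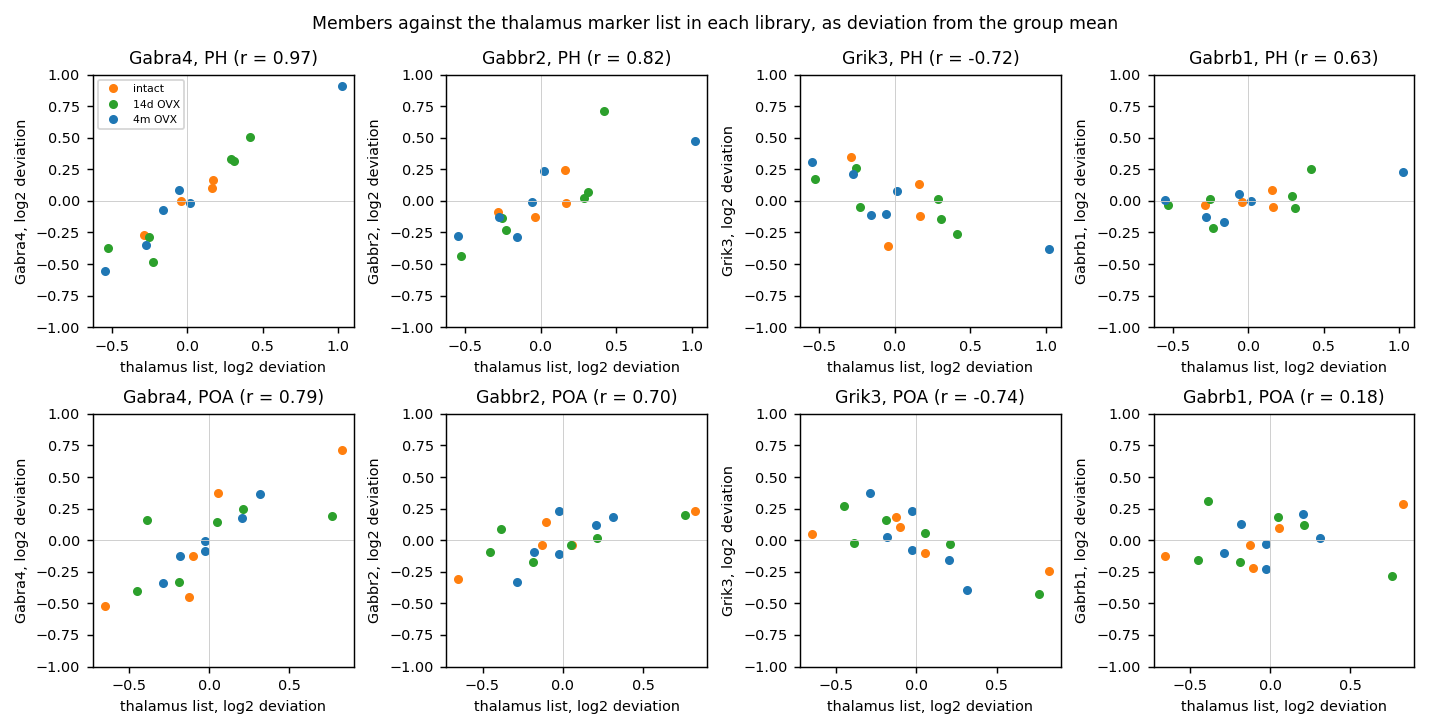
Log2 value of *Gabra4*, *Gabbr2*, *Grik3* and *Gabrb1* (y axis) against the mean log2 value of the thalamus list (x axis), each as the deviation from its group mean, with 1 point per library, the PH above, the POA below and colors for the groups. *Gabra4* climbs with the list (r = 0.97 and 0.79), while its neighbor *Gabrb1* spans a narrower range (r = 0.63 and 0.18).

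*Gabra4* and *Gabrb1* lie head to head on chromosome 5 on opposite strands, and their annotated 5′ ends overlap, so reads there could be assigned to either gene unless strand was used in counting, which the sources used here do not state. The pair is shown because their levels varied unequally, with a within-group SD in the PH of 0.42 for *Gabra4* and 0.13 for *Gabrb1*. *Gabrb1* had r = 0.63 with the thalamus list in the PH (permutation P = 0.0265, adjusted P of the slope = 0.138) and r = 0.18 in the POA (permutation P = 0.548, adjusted P of the slope = 0.81). The RefSeq start sites are 387 bases apart. The 250 bases before each start, 5′ to 3′ on the strand of the gene, are at chr5:71658309-71658558 (minus strand) and chr5:71657671-71657920 (plus strand) of GRCm38.p6, with the GC box GGGCGG or its reverse complement in capitals.
Gabra4: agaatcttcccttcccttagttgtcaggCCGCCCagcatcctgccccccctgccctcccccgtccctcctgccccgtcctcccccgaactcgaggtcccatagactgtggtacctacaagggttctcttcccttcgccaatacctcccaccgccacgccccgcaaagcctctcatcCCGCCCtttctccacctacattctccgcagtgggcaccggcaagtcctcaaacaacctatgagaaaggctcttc
Gabrb1: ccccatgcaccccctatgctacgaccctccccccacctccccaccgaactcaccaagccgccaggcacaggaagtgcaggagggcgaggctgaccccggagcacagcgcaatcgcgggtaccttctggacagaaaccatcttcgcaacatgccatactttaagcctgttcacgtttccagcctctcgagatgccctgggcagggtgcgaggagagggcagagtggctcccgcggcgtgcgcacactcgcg
The *Gabra4* window holds 2 GC boxes and the *Gabrb1* window 0, at GC contents of 61.2% and 64.4%.

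With the microglia and precursor lists, many genes of all kinds had a slope, and the counts of members are to be read against that. In the PH 5 of 41 members had a positive and 7 a negative slope on the microglia list at an adjusted P under 0.05, where 16% and 15.1% of all genes did, and in the POA 5 and 4 did, where 12.2% and 9.45% of all genes did. On the list of oligodendrocyte precursors the counts were 7 and 6 in the PH, with 15.7% and 14% of all genes, and 5 and 2 in the POA, with 9.44% and 4.79%. Without PH replicate 5 at 14 days the PH counts on microglia were 3 and 3, with 8.33% and 8.59% of all genes. Without POA replicate 6 at 14 days the POA counts were 6 and 8 on microglia and 7 and 4 on the precursors, where 13.7% and 11.7%, then 12.1% and 9.32%, of all genes were called. The kainate receptor gene *Grik4* had positive slopes on both lists in both regions, of 1.76 ± 0.34 (SE, adjusted P = 0.000994) (PH) and 1.70 ± 0.36 (SE, adjusted P = 0.00404) (POA) on microglia. On the precursors it gave Pearson r = 0.82 (permutation P = 0.00036) and Spearman rho = 0.70 (permutation P = 0.00554) in the PH, with an adjusted P of 0.00118 for the slope. In the POA it gave Pearson r = 0.82 (permutation P = 0.00043) and Spearman rho = 0.83 (permutation P = 0.00044), with an adjusted P of 0.00676. *Gabra4* had negative slopes on the microglia list, of -2.37 ± 0.41 (SE, adjusted P = 0.000587) and -2.33 ± 0.56 (SE, adjusted P = 0.00857). Within batches 1 and 2, r in the PH was 0.43 and 0.89 for *Grik4* with microglia, 0.41 and 0.88 with the precursors and -0.80 and -0.88 for *Gabra4* with microglia. In the POA the values in the same order were 0.33 and 0.18, 0.69 and 0.054 and -0.22 and -0.37, so that in the POA the relations with microglia did not hold within batches and that of *Grik4* with the precursors held in batch 1 only.

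In the POA 16 of 41 members had a positive slope on the neuronal list and 4 a negative one, where 11.5% and 5.39% of all genes did, and these calls rested on 1 library. Without POA replicate 6 at 14 days the counts were 0 and 0, where 0% and 0% of all genes were called. In that library *Gabrb2*, one of the 16, stood at 6367, against 8932 to 12787 in the other 5 of its group, and its slope of 2.51 ± 0.35 (SE, adjusted P = 0.00113) had an adjusted P of 0.148 without it. On the astrocyte list the POA counts were 4 and 12 (all genes 3.85% and 8.71%), and on the ependymal list 1 and 3 (all genes 0.552% and 0.66%), and each of these counts was 0 without that library. In the PH 0 members were called on these 3 lists. *Gabra5*, an alpha subunit abundant in the hippocampus, was the 1 member with a slope on the cortex and hippocampus list in the PH, where 0.796% of all genes had a positive and 0.0227% a negative one, at 0.56 ± 0.089 (SE, adjusted P = 0.00266) with Pearson r = 0.88 (permutation P = 0.00011) and Spearman rho = 0.75 (permutation P = 0.00203). Its PH r was 0.83 without the 2 libraries farthest from the median of the list, 0.96 within batch 1 and 0.82 within batch 2. In the POA its slope was -0.14 ± 0.28 (SE, adjusted P = 0.997), and the difference between the regions was not tested. On the other 5 lists 0 members were called in either region.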

How the data were processed

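Bulk RNA-seq of 33 libraries was analysed from 1 table. The authors aligned reads with kallisto and summarized and normalized them with tximport and DESeq2, per the study's methods, against mm39 and the GENCODE annotation, with surrogate variable adjustment by smartSVA. The table was deposited by the authors as normalized expression signal on a linear scale with decimals. The last step that made its values is not given in the sources used here, and the values are not whole reads, so no count model was used and the planned test was limma on log2 values. Of 42824 rows, 1259 named no gene and were left out.

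Values of 41565 named rows were log2-transformed without a pseudocount. Genes above 2 times the floor in at least 4 PH or 5 POA libraries were fitted per region with limma 3.58.1 (R 4.3.3, trend and robust options). The model held the 3 groups plus 1 surrogate variable (SV1). SV1 was started from the residuals and estimated again in 5 reweighting rounds. These rounds used values with the group differences left in, and genes that differed between groups were weighted down. All 3 groups share 1 estimate of the spread. P values were adjusted by Benjamini-Hochberg over all genes tested and are two-sided, with calls at an adjusted P under 0.05. Interactions used all 33 libraries with region-specific SV1. Correlations used 100000 permutations within groups, or exact enumeration, and slopes on the mean log2 value of a marker list were fitted with the groups and without SV1. Intervals are those of limma at 95%. The statistics were tested on simulated data. Named members were those called or at an unadjusted P under 0.05, or otherwise the smallest P values, and library-level patterns were chosen after their values were seen. Members and gene lists were chosen with earlier results of these data known. Transcript lengths and positions came from GENCODE M39 (GRCm39), and promoters from RefSeq (GRCm38.p6), which matched 31 of 44 members. Results for some genes are not reported here, while counts and class sums cover all members.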

Additional observations from a re-analysis of the deposited data

Results flagged for a closer look

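Single libraries that lay far from the rest of their group (a gap above Dixon's 95% critical value) were found in 20 of 222 sets of member, region and group (9.01%), where chance gives about 1 in 20. Of these, 7 were the POA library 14 days after OVX replicate 6, whose deposited values were 1747 for *Gabrd* (others 454 to 632), 5479 for *Gabra3* (others 8315 to 10238), 14257 for *Gria2* (others 19684 to 23612), 2230.2 for *Gabrg3* (others 3075 to 3554), 1473 for *Gabra5* (others 2178 to 2751), 2839.8 for *Grik2* (others 3997 to 4529.7) and 3448 for *Grm4* (others 1353 to 1881). The PH library 14 days after OVX replicate 5 accounted for 3, with values of 702 for *Grik4* (others 1094 to 1420.1), 3870.1 for *Gabra5* (others 1830.5 to 2320.0) and 4858 for *Grik2* (others 3699 to 4004). The POA library 4 months after OVX replicate 5 accounted for 3, with values of 50082 for *Gabbr1* (others 39609.9 to 42916), 8286 for *Grin2b* (others 11697 to 14168) and 18010.4 for *Gria2* (others 20919 to 22544).

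*Gabra2* was far below the rest in 2 PH groups, with 4079.5 for *Gabra2* (others 5920.4 to 6245) in intact replicate 1 and 2416 for *Gabra2* (others 6557 to 8751) in replicate 6 at 4 months, the numbers that were also lowest in the POA. The other 5 were 1108 for *Grik1* (others 1286 to 1355) in POA intact replicate 2, 115 for *Gabrr2* (others 72.0 to 82.8) in PH replicate 4 at 4 months, 19.8 for *Gabrr1* (others 40.9 to 50.4) in PH replicate 3 at 14 days, 5647 for *Grin2b* (others 9810.3 to 13573) in POA replicate 5 at 14 days and 10657 for *Grm5* (others 9924 to 10036) in PH intact replicate 4. No cause of these values was tested.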

How the results depend on the processing

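The number of members called was 0 in the 6 comparisons within a region under each alternative run (batch, SV1 with batch, no covariate, the component at the floor with batch, the thalamus and cortex list means, the replicate block, a pseudocount of 10, no filter on low values, protein-coding genes only, the 2 compared groups only, and each library left out). For the interactions it was also 0, but the list means, the replicate block, protein-coding genes only and the 2 compared groups only were not run. The number at an unadjusted P under 0.05 moved: with 1 library left out it ran over 1 to 3, 0 to 5 and 0 to 5 in the PH comparisons (14 days and 4 months against intact, then 4 months against 14 days), 5 to 10, 3 to 7 and 2 to 9 in the POA comparisons and 0 to 6 and 0 to 5 for the interactions. Under the other alternatives it ran over 0 to 3, 0 to 3 and 0 to 5 (PH), 0 to 11, 1 to 14 and 1 to 4 (POA), and 0 to 8 and 1 to 9 (interactions). For 4 months against 14 days in the PH, the median of the AMPA genes ran from -0.10 to 0.056 with 1 library left out (4-month replicates 1 and 3), against -0.033, and that of the GABA-A genes was -0.080 with the thalamus and cortex list means in place of SV1, against 0.010; the cause was not tested. That alternative, the canonical length, the batch 2 differences without a library, the correlations without the 2 farthest libraries or within 1 batch, the list slopes without a library that stands apart and the paired regions were chosen after seeing the data. The list means were fitted without SV1 and without batch. Shares within a class depend on the transcript length: *Grin2b* ranged from 37.8% to 62.3% in the PH. Read depth is unknown, so members near the floor (*Gabrr1*, *Gabrr2*, *Grin3b*) have folds of unknown precision.

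The replicate number as a block, with SV1, gave 0 members called in each of the 6 comparisons within a region, and 3, 0, 5, 4, 2 and 4 at an unadjusted P under 0.05 in the order above. Numbers were not treated as pairs: same-numbered libraries of different groups had correlations of -0.18 to 0.39 in the PH and -0.31 to 0.39 in the POA, and 6 of 16 PH and 5 of 17 POA libraries correlated best with their own number. Same-numbered PH and POA libraries of a group had correlations over all genes of -0.34 to 0.47, above 0.1 in 14 of 16 pairs. Differences within these pairs gave 0 members called in either interaction.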

Other observations

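Of 8 related channel genes that the choice by symbol leaves out (delta glutamate and glycine receptor subunits among them), 7 were tested and 0 were called in the 6 comparisons within a region by limma. In the PH at 4 months, *Glra2*, a subunit of the glycine-gated chloride channel, had a log2 fold change of -0.31 ± 0.10 (SE, unadjusted P = 0.00814, adjusted P = 0.626) against intact and -0.30 ± 0.10 (SE, unadjusted P = 0.00773, adjusted P = 1.00) against 14 days. At an unadjusted P under 0.05, *Glra1* was also higher than intact in the PH at 4 months and *Grid1* lower in the POA at 14 days, and 0 of the 7 reached this P in the other 3 comparisons.

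The 38 RefSeq promoter windows of 31 members had a median GC content of 60.2%, beside 52.7% over all 32851 windows of the same length, given as a description.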
